A study of Homo sapiens with 12 samples.

Results

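The genes described here were expressed in control NCCIT cells and were at most 1/3 as high when the activator dCas9-VPR was recruited to LTR5HS elements. NCCIT is an established human embryonal carcinoma cell line. A member had at least 5 CPM (counts of the gene scaled to the total of the library, in units of 1000000) in each of the 4 dCas9-VPR control libraries, and its higher recruitment library reached at most 1/3 of its lowest control. Of the 26641 genes counted, 11004 passed the CPM limit, 64 of those also passed the ratio (0.582%), and 63 remained after gene families named HOX, PCDH, HIST, ZIC, EPHA, LEFTY or ZNF were left out. That last step removed LEFTY2 alone.

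LTR5HS is the youngest class of long terminal repeats of the endogenous retrovirus HERVK, and many copies lie alone in the genome, where such repeats can act as enhancers. Catalytically dead Cas9 (dCas9) binds where its guide RNAs pair with DNA without cutting. Fused to VPR it raises transcription near its target (CRISPRa), and fused to the KRAB domain it brings repressive chromatin (CRISPRi). The members are grouped below by what they encode, from transcription factors and secreted antagonists to receptors, channels and enzymes.

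Polyadenylated RNA was sequenced from 6 lines in 2 replicates each, 12 libraries in all. Every line carried a doxycycline-inducible dCas9 fusion (dCas9-VPR or dCas9-KRAB) and an array of guides, both inserted with PiggyBac transposons and selected with puromycin and G418, and all were given doxycycline for 4 days. The recruitment lines held LTR5HS Sp, whose 12 guides carry the Streptococcus pyogenes scaffold that this dCas9 uses. The 2 control arrays were LTR5HS Sa, aimed at the same elements but on the Staphylococcus aureus scaffold that this dCas9 does not bind, and nontarget Sp, which was designed to pair nowhere in the genome. No library here came from a line without a fusion, so the fusion and the line that carries it cannot be told apart. Each pairing of array and fusion was its own line, so recruitment and line cannot be told apart either. The 4 control libraries of a fusion came from 2 lines. Fewer cells of one kind cannot be told from less RNA per cell.

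Library totals ran from 13601701 to 69797411 counts, so that 3 counts stood for 0.043 to 0.221 CPM. All 18 pluripotency markers were above 1 CPM in every library. Their summed level differed by fusion, at 1638 to 2518 CPM in the dCas9-VPR controls and 6269 to 7981 CPM in the dCas9-KRAB controls. NANOG, a core pluripotency factor, stood at 2.57 ± 2.01 CPM (SD, n = 4) in the former and at 144 ± 31.5 CPM (n = 4) in the latter. With LTR5HS Sp recruitment of dCas9-VPR the sum was 1815 to 1887 CPM, inside the range of its controls. Within that sum single markers moved both ways. In the edgeR test described below, 2 of 18 were higher and 6 lower (15.7% and 12.3% of all genes were). SOX2 had 128.9 to 169.2 against 294.4 to 474.7 CPM, while TFCP2L1 averaged 206.1 against 42.71 CPM. Markers of other lineages were summed in the same way, and the neural list includes the member SOX21. The 8 fibroblast markers summed to 3303 to 3312 CPM in the dCas9-VPR recruitment libraries against 508 to 692 CPM in their controls, 26 neural progenitor markers to 2107 to 2168 against 1378 to 2368 CPM, 20 mesoderm and endoderm markers to 377 to 417 against 216 to 357 CPM, and 14 trophoblast markers to 392 to 445 against 439 to 591 CPM. With dCas9-KRAB the corresponding ranges in recruitment and control libraries were 904 to 963 and 948 to 1099 CPM for fibroblast, 1157 and 1024 to 1331 CPM for neural progenitor, 31.3 to 50.1 and 24.1 to 46.1 CPM for mesoderm and endoderm, and 380 to 444 and 203 to 262 CPM for trophoblast markers. The fibroblast sum stood apart with dCas9-VPR through 1 gene, COL1A1 (2840 to 2920 against 63.9 to 94.2 CPM), without which it was 392 to 463 against 414 to 621 CPM. The mesoderm and endoderm sum without TBX3 likewise overlapped its controls (204 to 253 against 187 to 317 CPM), and the neural sum overlapped them with all its genes. With dCas9-KRAB the trophoblast sum was the one that did not overlap its controls, and the gap lay largely in TFAP2A (293.5 to 339.2 against 118.8 to 179.4 CPM). Without TFAP2A the sums nearly touched, at 85.95 to 105.1 against 80.28 to 85.91 CPM. No marker of these lists was at 0 in all libraries, and their part in the results was not tested.

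The guides were located in the hg38 reference to see where the members lie with respect to exact guide matches. The paper predicts that the guides also match part of the related LTR5A and LTR5B elements, so a match need not lie in LTR5HS. Binding of dCas9, which the paper measured by ChIP-seq, was not used here. Exact 16-base matches of the 12 guides followed by an NGG protospacer-adjacent motif numbered 2938, and matches within 1000 bp of each other were joined into 950 sites. These are the matches nearest to a member's start, shown because they are the only ones within 100 kb. Capitals mark the protospacer-adjacent motif.
FRMD5, guide LTR5HS-8, chr15:44229030-44229048, + strand: taaagggtctgtgctgGGG
TAC3, guide LTR5HS-8, chr12:56969153-56969171, - strand: taaagggtctgtgctgAGG
PTGS1, guide LTR5HS-7, chr9:122448583-122448601, + strand: aaccttggacaataccTGG
They lay 33.8 kb, 47.4 kb and 77.6 kb from the starts of FRMD5, TAC3 and PTGS1. Further members lay farther away, among them C1R at 206 kb and C1QL4 at 221 kb. Of the 62 members with a position 3 (4.84%) were within 200 kb of a site, against 1840 of 10821 other expressed genes (17%), while the medians were alike at 914 kb and 979 kb. These shares are a description, since genes are not independent of their neighbours.

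**Figure D1:**
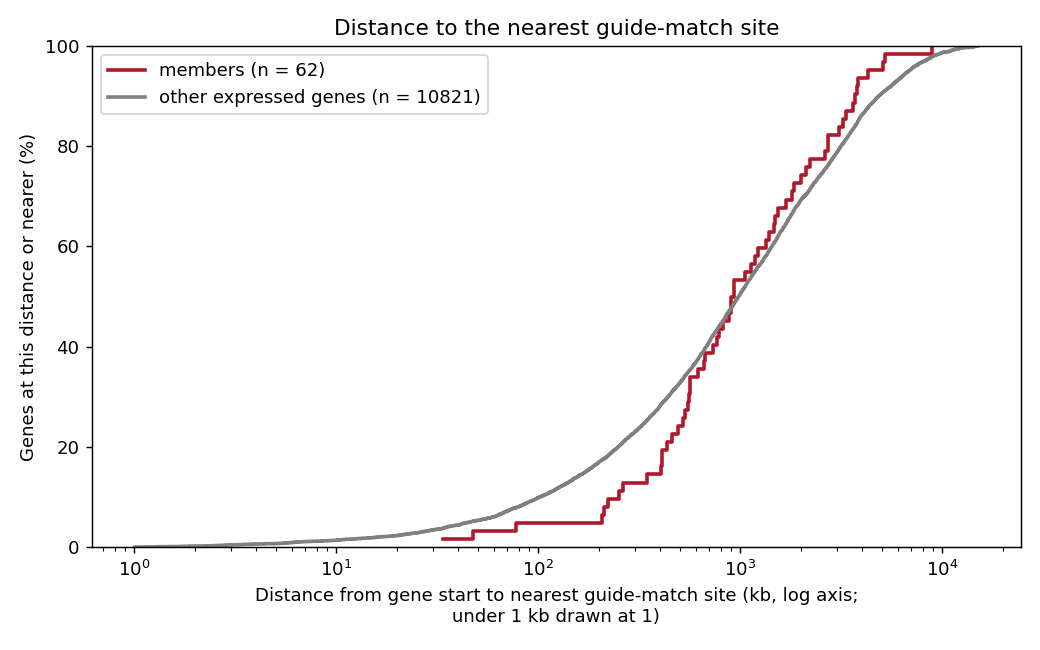
Cumulative share of genes (vertical axis, percent) against the distance from gene start to the nearest guide-match site (horizontal axis, kb, log scale) for 62 members and 10821 other expressed genes. The curves meet near the medians of 914 kb and 979 kb, and below 200 kb the members' curve (4.84%) lies under that of the other genes (17%).

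By position the members were spread over 20 chromosomes. GENCODE 44 classed 58 as protein-coding and 4 as long non-coding RNA, with 59 found by symbol and 3 by an older symbol (FAM49A, PTRF and MTL5). One symbol of the table, 3-Sep, reads as a date and is left without a position or a description. Only 4 pairs of members lay within 250 kb of each other. SOX21 and SOX21-AS1 overlap on opposite strands of chromosome 13, and PLIN5 and TNFAIP8L1 (104 kb, chromosome 19), F10 and GRTP1 (175 kb, chromosome 13) and ADRA2B and ITPRIPL1 (209 kb, chromosome 2) had 1, 3 and 5 other expressed genes between them. The median gene length was 3616 bp, against 3499 bp over the 11004 expressed genes.

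**Figure D2:**
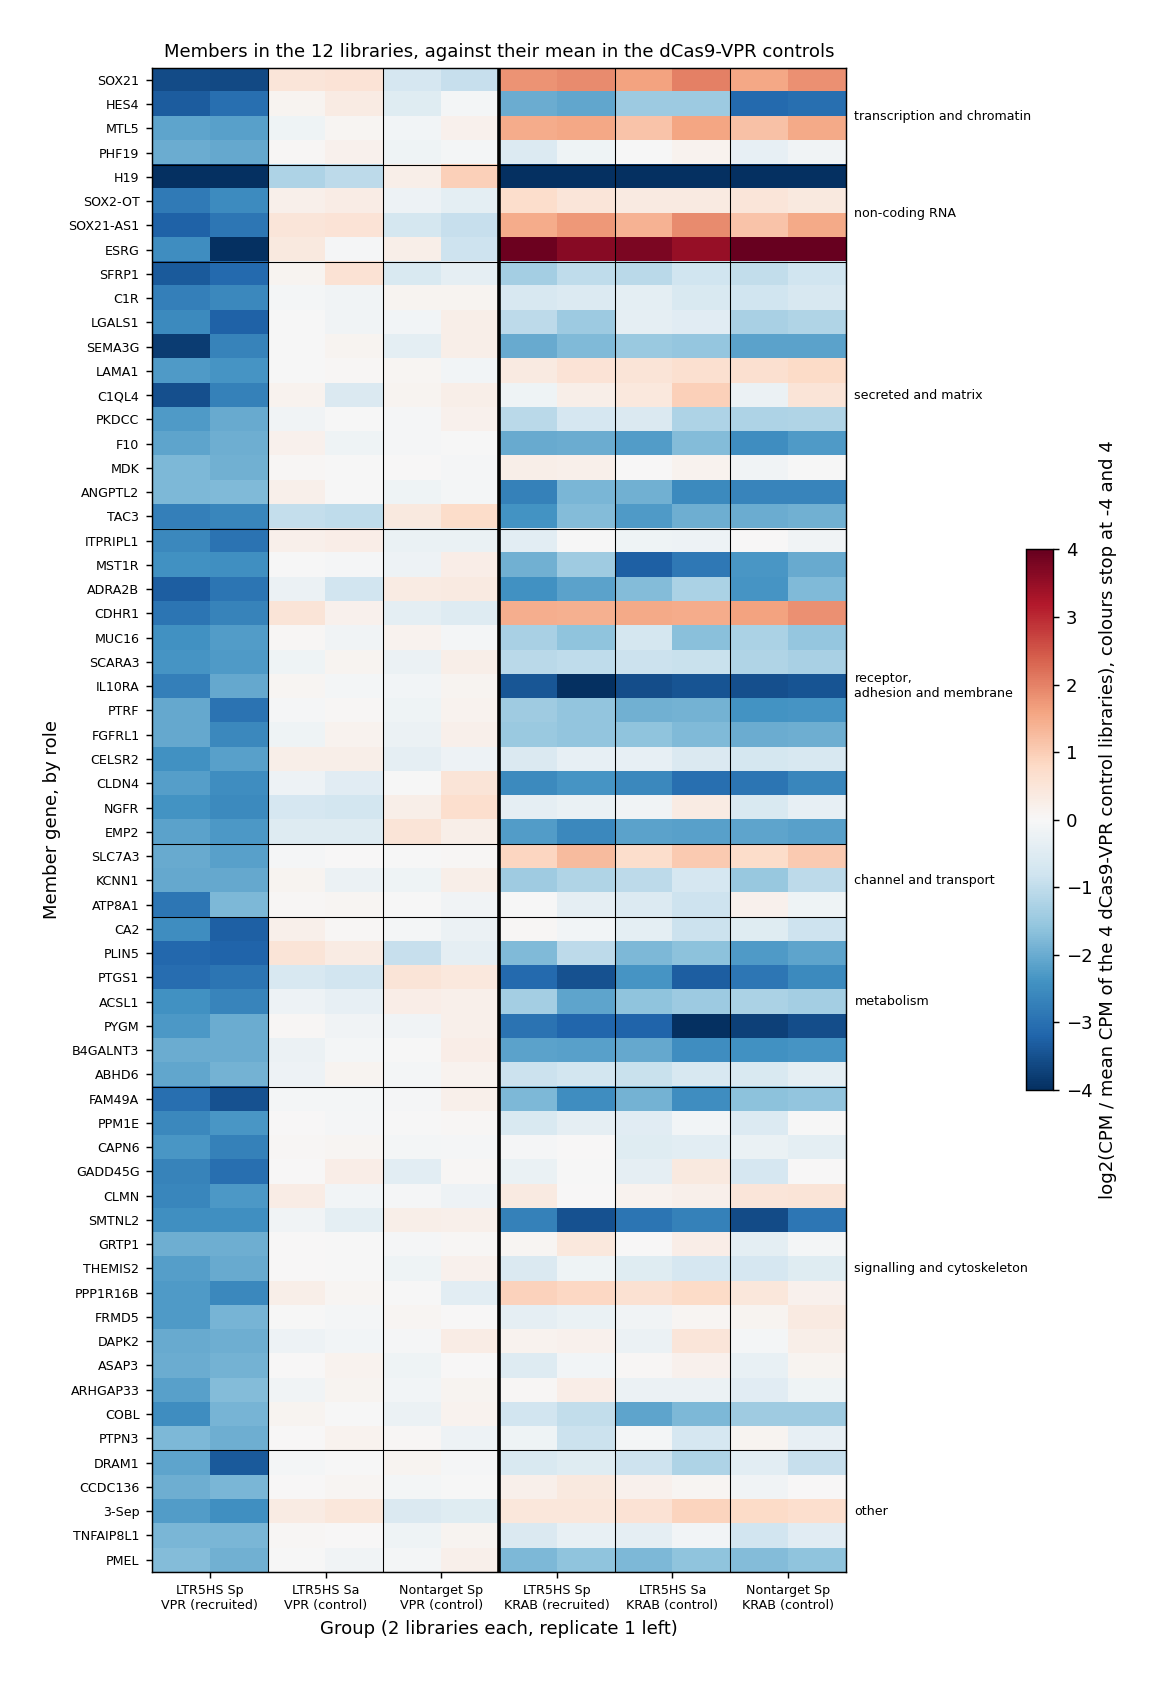
Each row is one of 62 members, each column a library, and the colour is the log2 of its CPM over the gene's mean in the 4 dCas9-VPR control libraries (colours stop at -4 and 4). The 2 left columns are low in every row because the rule chose them so, whereas the 6 dCas9-KRAB columns on the right range from far above the dCas9-VPR controls (ESRG) to far below them (H19).

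The difference that chose the members is given first, as a description with no test. The mean of the 4 dCas9-VPR controls was 3.45 to 36.2 times that of the 2 recruitment libraries, with a median of 5.03. Most members were modest in level, with control means from 5.79 to 575 CPM and a median of 23.2 CPM. Just inside the limit were COBL (ratio 0.330), PTPN3 (0.331) and TAC3 (0.331), and just outside it were GAS7 (0.3335), SOCS2 (0.336) and LINC00371 (0.336). COBL, for instance, had 1.36 and 2.13 CPM with recruitment against 6.44 to 8.36 CPM in the controls, and SOCS2 15.7 and 20.4 CPM against 60.9 to 69.4 CPM. PTPN3 had 2.29 and 2.08 against 6.93 to 8.80 CPM and TAC3 1.69 and 1.87 against 5.64 to 18.9 CPM, while GAS7 had 10.4 and 7.73 against 31.1 to 49.0 CPM and LINC00371 2.89 and 4.10 against 12.2 to 20.9 CPM. In the CRISPRi test described next SOCS2, just outside the limit, was higher (log2 fold change 0.97, edgeR adjusted p = 0.034), and COBL, PTPN3 and TAC3 were not past the threshold.

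The question put to dCas9-KRAB was whether genes low under the activator changed under the repressor. In the edgeR quasi-likelihood test of 2 recruitment against 4 control dCas9-KRAB libraries, 430 of 15520 genes passed an adjusted p of 0.05 (2.77%), 129 higher (0.831%) and 301 lower (1.94%). All 63 members were tested and 0 passed. At an unadjusted p under 0.05 there were 5 members, all higher, against 13.6% of all genes, and DESeq2's Wald test called 2 members, CA2 and PTRF, both higher, in a fit that called 716 genes (4.61%). Members were split evenly, with 31 above and 32 below 0, and their median log2 fold change was -0.00099, beside 0.00060 over all genes tested. Their values ran from -0.59 (PTGS1) to 0.80 (MST1R).

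The precision of the CRISPRi comparison depended on the gene. Standard errors of the log2 fold change had a median of 0.20 and a range of 0.098 (SOX2-OT) to 0.47 (HES4 and IL10RA). In 63 of 63 members the 95% interval, taken gene by gene, lay above a fall to 1/3 (-1.58 on the log2 scale). In 56 it lay above a fall by 1.00, in 57 below a rise by 1.00, and in 51 between both. The lowest limit, -1.54, belonged to IL10RA, which had 11 and 3 counts in the recruitment libraries. The highest limits were those of H19 (1.66), MST1R (1.61), COBL (1.31), PLIN5 (1.19), PYGM (1.13) and HES4 (1.09).

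**Figure D3:**
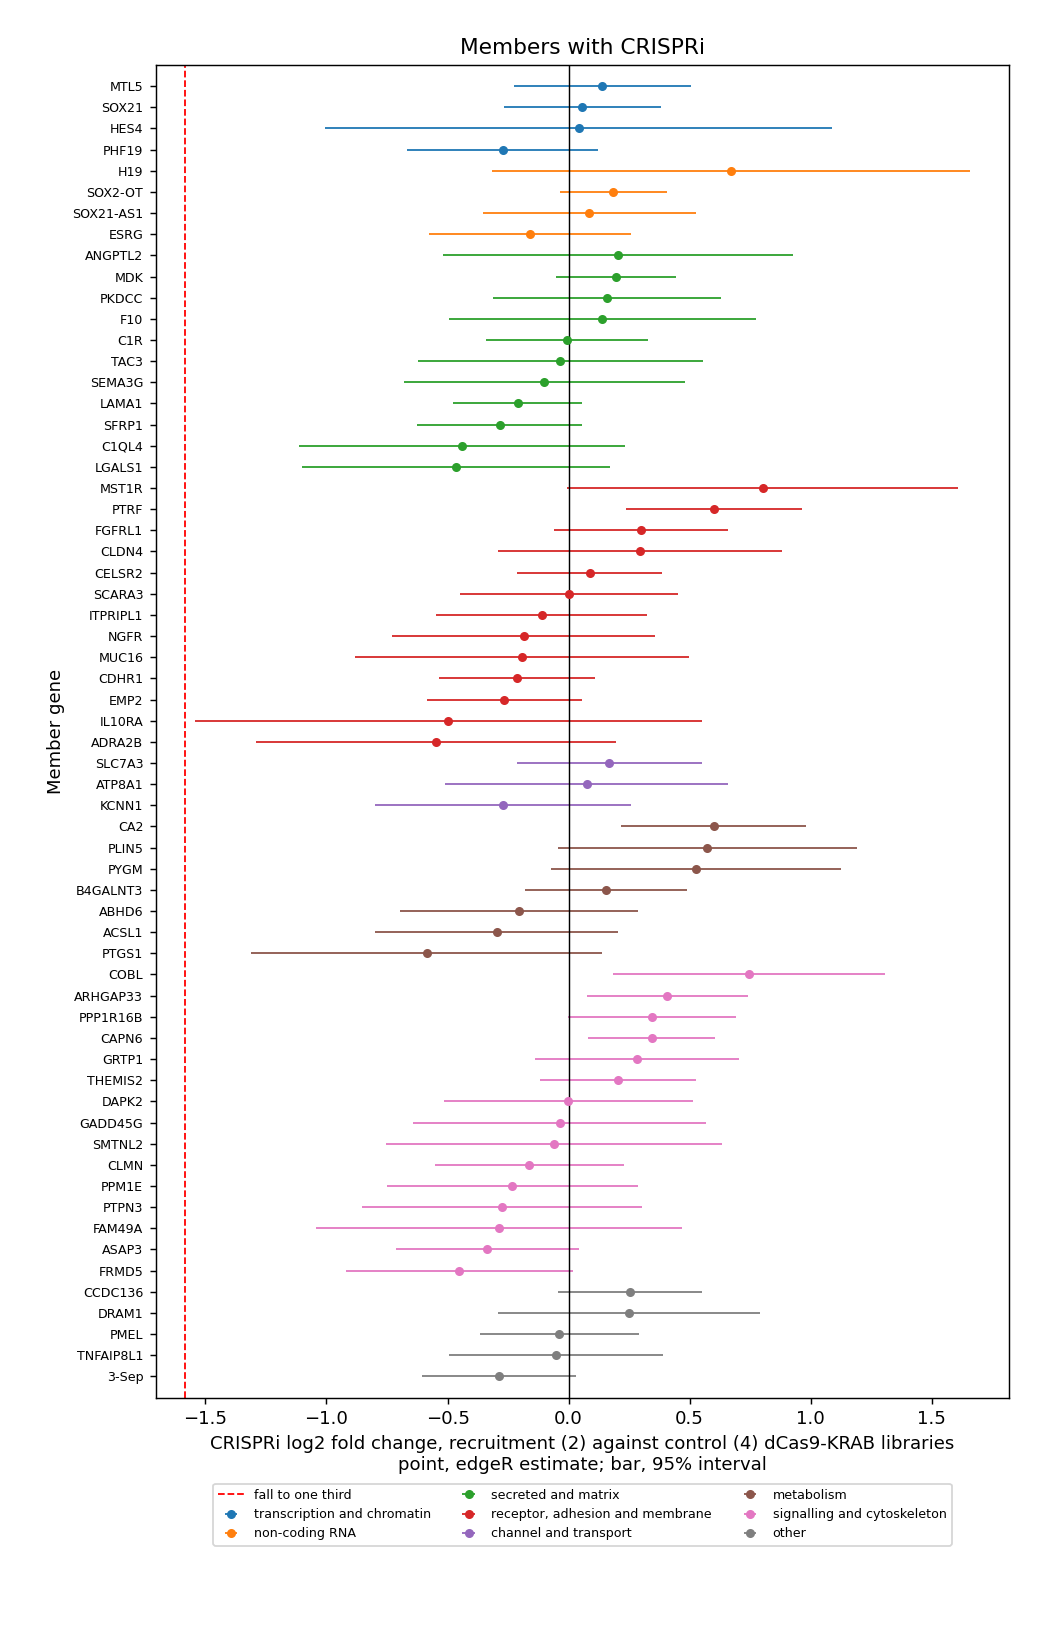
CRISPRi log2 fold change (horizontal axis) of 62 members (vertical axis, coloured by role), as the edgeR estimate with its 95% interval from 2 recruitment and 4 control dCas9-KRAB libraries. Points lie on both sides of 0, between -0.59 and 0.80, and no interval reaches the dashed line at a fall to 1/3 (-1.58).

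The 5 members with an unadjusted p under 0.05 were PTRF, CA2, COBL, CAPN6 and ARHGAP33. PTRF (cavin 1, a coat protein of caveolae) had 68.1 and 61.6 CPM with dCas9-KRAB recruitment, 48.2 and 50.1 CPM with LTR5HS Sa and 35.5 and 36.1 CPM with nontarget Sp. The groups did not overlap, and the fitted log2 fold change was 0.60 (SE 0.16, edgeR adjusted p = 0.11). CA2, a carbonic anhydrase, had 16.2 and 14.6 CPM with recruitment and 8.68 to 11.8 CPM in the controls (log2 fold change 0.60, SE 0.17, edgeR adjusted p = 0.13). COBL, an actin nucleator, had 4.48 and 3.89 CPM against 1.77 to 2.87 CPM (0.75, SE 0.25, edgeR adjusted p = 0.21). CAPN6, a calpain without protease activity, and ARHGAP33, a GTPase-activating protein, had log2 fold changes of 0.34 and 0.41. Against nontarget Sp alone PTRF passed the test (edgeR adjusted p = 0.0091), and against LTR5HS Sa alone it did not (log2 fold change 0.38, edgeR adjusted p = 0.33).

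Both dCas9-KRAB recruitment libraries were above all 4 controls in 13 members (20.6%), against 1461 of the 11004 expressed genes (13.3%). They were below all 4 controls in 4 members (6.35%), namely 3-Sep, CDHR1, EMP2 and FRMD5, against 1049 expressed genes (9.53%). The 13 were PTRF, CA2, COBL, CAPN6, ARHGAP33, MST1R, PYGM, PPP1R16B, FGFRL1, CLDN4, CCDC136, MDK and SOX2-OT.

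Among transcription and chromatin genes were SOX21, HES4, MTL5 and PHF19. SOX21 (chr13:94709622-94712545), a SOX factor of the neural lineage, had 8.57 and 8.46 CPM with dCas9-VPR recruitment, 143 and 150 CPM with LTR5HS Sa and 64.7 and 54.5 CPM with nontarget Sp. With dCas9-KRAB it had 355 and 381 CPM with recruitment and 303 to 414 CPM in the controls (log2 fold change 0.06, SE 0.14), higher than in any dCas9-VPR library. Its 4 dCas9-VPR controls thus fell into 2 levels by array while its dCas9-KRAB libraries overlapped. PHF19, a polycomb-like partner of the repressive complex PRC2, had 6.98 and 6.70 CPM with dCas9-VPR recruitment against 24.5 to 31.4 CPM, and MTL5 (also called TESMIN) 3.82 and 3.63 against 14.6 to 18.6 CPM. Their CRISPRi log2 fold changes were -0.27 and 0.14.

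HES4 (chr1:998962-1000172), a basic helix-loop-helix repressor downstream of Notch, was the one member that differed between the control arrays of dCas9-KRAB in the main fit, which had no replicate block. It had 16.1 and 16.2 CPM with LTR5HS Sa, 5.11 and 5.49 CPM with nontarget Sp, and 11.2 and 10.6 CPM with recruitment, between both controls. The log2 difference of LTR5HS Sa over nontarget Sp was 1.60 (SE 0.18, edgeR adjusted p = 0.0023), where 88 of 15520 genes passed (0.567%). With the replicate number as a block 3 members passed, LGALS1 (0.84, edgeR adjusted p = 0.023) and ESRG (-0.54, edgeR adjusted p = 0.017) besides HES4, among 410 genes (2.64%). HES4 had a CRISPRi log2 fold change of 1.02 (SE 0.20, edgeR adjusted p = 0.023) against nontarget Sp alone and of -0.58 against LTR5HS Sa alone, while the pooled value was 0.04 (SE 0.47). In the dCas9-VPR lines it had 4.42 and 5.50 CPM with recruitment, 48.0 and 56.0 CPM with LTR5HS Sa and 31.8 and 42.4 CPM with nontarget Sp.

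The 250 bases before the RefSeq start are shown for SOX21, which moved together with its antisense partner, and for HES4, which split the control arrays (RefSeq, GRCh38.p14, 5′ to 3′ on the minus strand). Capitals mark matches on either strand to 6 short motifs, which were the TATA box TATAAA, the CCAAT box CCAAT, the GC box GGGCGG, the E-box CACGTG, the octamer of POU factors ATGCAAAT and the TCF and LEF motif CTTTGAT. None of the motifs overlapped another in these windows.
SOX21, chr13:94712546-94712795: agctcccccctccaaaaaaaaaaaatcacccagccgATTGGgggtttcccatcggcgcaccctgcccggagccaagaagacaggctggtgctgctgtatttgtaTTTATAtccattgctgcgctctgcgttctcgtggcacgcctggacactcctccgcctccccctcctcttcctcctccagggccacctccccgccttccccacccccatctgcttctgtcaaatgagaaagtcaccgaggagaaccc
HES4, chr1:1000098-1000347: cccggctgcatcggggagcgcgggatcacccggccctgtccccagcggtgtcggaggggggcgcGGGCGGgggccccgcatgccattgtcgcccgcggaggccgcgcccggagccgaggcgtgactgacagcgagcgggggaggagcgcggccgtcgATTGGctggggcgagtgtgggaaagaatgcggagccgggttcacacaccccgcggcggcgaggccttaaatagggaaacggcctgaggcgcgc
The SOX21 window held 1 TATA box and 1 CCAAT box match and was 58.8% GC, and that of HES4 held 1 CCAAT box and 1 GC box match at 74.8% GC. Of 17390 gene windows of the same length 9.28% held the TATA box, 34.5% the CCAAT box, 53.5% the GC box, 7.61% the E-box, 1.61% the octamer and 1.8% the TCF and LEF motif, and the median GC content was 61.6% (quartiles 51.6% and 70.0%). A promoter sequence was matched for 37 of 63 members (58.7%). A comparison of promoters over the members was void at that coverage and none is given.

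The SOX, Notch and neural lists, fixed with earlier results known, show the other genes around these members. Shares of all genes past the test were 15.7% higher and 12.3% lower in CRISPRa, and 0.831% higher and 1.94% lower in CRISPRi. Of 15 other SOX genes tested with CRISPRa 2 rose and 3 fell, with SOX6 up by 2.88 on the log2 scale (SE 0.39, edgeR adjusted p = 0.0011) and SOX18, an endothelial factor, down at -1.77 (SE 0.24, edgeR adjusted p = 0.0012). With CRISPRi 1 of 16 rose, SOX3 (1.24, SE 0.18, edgeR adjusted p = 0.0049). Of 21 other Notch pathway genes 5 rose and 4 fell with CRISPRa. The ligand gene DLL3 rose from 4.66 to 766 CPM (mean log2 fold change 7.49) and NRARP, a feedback inhibitor of Notch, fell from 25.4 to 6.26 CPM (-1.89). HES1, also on the list, rose from 13.82 to 44.65 CPM (1.825, SE 0.172), so the genes named here went both ways. With CRISPRi 1 of 21 fell, DLL3 (-1.21). Among 19 other neural progenitor genes tested with CRISPRa 6 rose and 2 fell, led by POU3F2 (4.73), and 1 of 20 rose with CRISPRi, SOX3 again.

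Non-coding members were H19, SOX21-AS1, SOX2-OT and ESRG. H19 (chr11:1995166-2004552), an imprinted RNA, had the lowest ratio of all (0.067), with 1.69 and 1.82 CPM under dCas9-VPR recruitment, 27.0 and 30.6 CPM with LTR5HS Sa and 74.8 and 122 CPM with nontarget Sp. In the dCas9-KRAB lines it was at 0.989 to 2.49 CPM in the controls and 3.20 and 1.36 CPM with recruitment, close to the dCas9-VPR recruitment level. ESRG (chr3:54632122-54639857), a pluripotent-cell RNA that arises from an HERVH retroviral element, showed the opposite order. It had 11.1 and 3.94 CPM with dCas9-VPR recruitment, 35.1 to 82.6 CPM in the dCas9-VPR controls, and 710 to 1212 CPM in the dCas9-KRAB controls, with 947 and 784 CPM under dCas9-KRAB recruitment (log2 fold change -0.16, SE 0.19).

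SOX21-AS1 (chr13:94703454-94803430) followed SOX21, with 4.15 and 5.24 CPM with dCas9-VPR recruitment, 53.8 and 56.6 CPM with LTR5HS Sa, 23.5 and 20.6 CPM with nontarget Sp, and 85.1 to 143 CPM over the dCas9-KRAB libraries. The library method did not mark strand, so reads from the shared stretch cannot be assigned to SOX21 or to SOX21-AS1. SOX2-OT (chr3:180989762-181836880), which runs across the SOX2 locus, had 22.3 and 27.8 CPM with dCas9-VPR recruitment against 122 to 196 CPM, and SOX2 itself had 149 ± 28.4 CPM (SD, n = 2) against 386 ± 101 CPM (n = 4). Under dCas9-KRAB SOX2-OT had 258 and 225 CPM with recruitment against 202 to 222 CPM (log2 fold change 0.19, SE 0.098, edgeR adjusted p = 0.46).

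**Figure D4:**
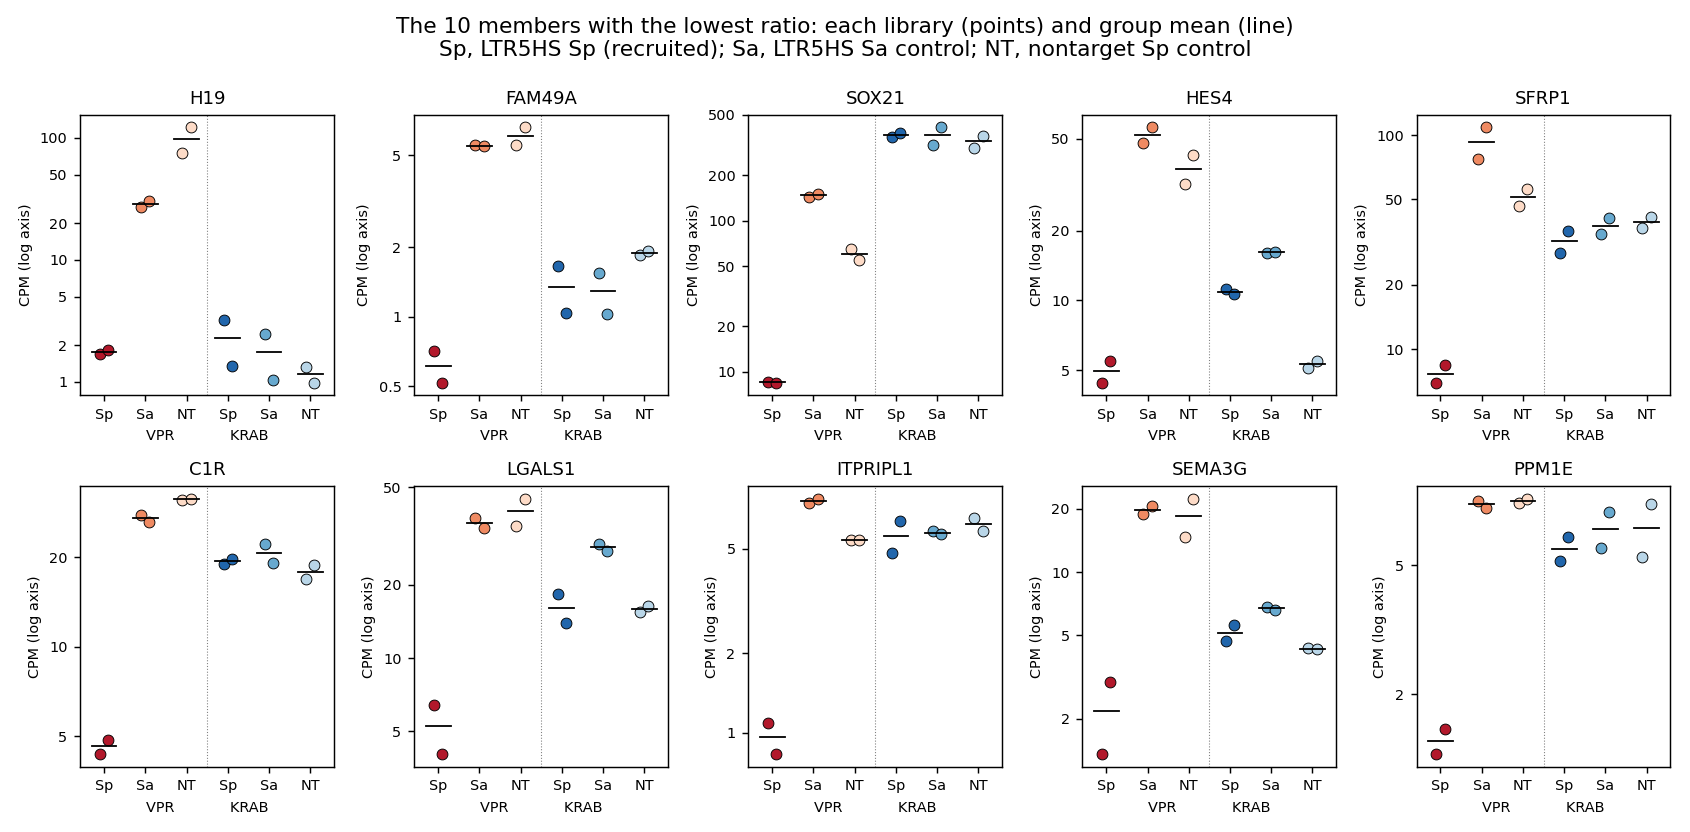
CPM (log axis) in each library for the 10 members with the lowest ratio, with points for libraries and a line for the mean of each group of 2. H19 is as low in the dCas9-KRAB libraries (0.989 to 3.20 CPM) as with dCas9-VPR recruitment, SOX21 is highest there (303 to 414 CPM), and HES4 differs between the dCas9-KRAB control arrays.

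Secreted and matrix proteins were 11 of the members. SFRP1, a secreted Wnt antagonist, had 6.98 and 8.41 CPM with dCas9-VPR recruitment, 77.4 and 109 CPM with LTR5HS Sa and 46.8 and 55.8 CPM with nontarget Sp. With dCas9-KRAB it had 28.2 and 35.7 CPM with recruitment and 34.4 to 41.5 CPM in the controls (log2 fold change -0.28, SE 0.15, edgeR adjusted p = 0.47), so the groups overlapped. C1R, a protease of the complement cascade, had 4.37 and 4.88 CPM against 26.3 to 31.6 CPM with dCas9-VPR, and 18.95 and 19.8 against 16.9 to 22.1 CPM with dCas9-KRAB. SEMA3G, a class 3 semaphorin, had 1.36 and 3.01 against 14.7 to 22.4 CPM, and 4.70 and 5.57 against 4.30 to 6.81 CPM.

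LGALS1 encodes a galectin and had the next lowest adjusted p after HES4 in the comparison of control arrays. It had 6.44 and 4.05 CPM against 34.2 to 45.0 CPM with dCas9-VPR. With dCas9-KRAB it had 18.2 and 13.9 CPM with recruitment, 29.4 and 27.4 CPM with LTR5HS Sa and 15.4 and 16.3 CPM with nontarget Sp. The LTR5HS Sa libraries stood apart, and recruitment overlapped nontarget Sp. LTR5HS Sa over nontarget Sp was 0.84 on the log2 scale (SE 0.17, edgeR adjusted p = 0.075), and recruitment against LTR5HS Sa alone was -0.84 (SE 0.20, edgeR adjusted p = 0.032). Recruitment against nontarget Sp alone was -0.0029 (SE 0.19, edgeR adjusted p = 0.99), and against the pooled controls -0.47 (SE 0.28, edgeR adjusted p = 0.52).

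MDK (midkine, a heparin-binding growth factor) was the most abundant of this group. It had 167 and 152 CPM with dCas9-VPR recruitment against 562 to 588 CPM, and 671 and 668 CPM with dCas9-KRAB recruitment against 518 to 638 CPM (log2 fold change 0.19, SE 0.11). LAMA1, a laminin chain of basement membrane, had 18.6 and 17.5 CPM against 83.9 to 94.1 CPM, and 115 and 130 CPM against 127 to 152 CPM with dCas9-KRAB. The MDK controls of the 2 fusions overlapped, while the LAMA1 controls were higher with dCas9-KRAB. The others were C1QL4 (a C1q-like protein), PKDCC (a secreted tyrosine kinase), F10 (coagulation factor X), ANGPTL2 (an angiopoietin-like protein) and TAC3 (the neurokinin B precursor), with CRISPRi log2 fold changes from -0.44 (C1QL4) to 0.20 (ANGPTL2).

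The Wnt list held 46 other genes tested with CRISPRa, of which 20 rose and 7 fell (15.7% and 12.3% of all genes did). SP5 and LEF1, a target and a nuclear partner of the pathway, rose by 5.37 (SE 0.36, edgeR adjusted p = 2.4e-05) and 4.54 (SE 0.24, edgeR adjusted p = 8.5e-06). With CRISPRi 1 of 42 rose, the ligand gene WNT8A (1.09), where 0.831% of all genes did. In the fibroblast and matrix list 7 of 20 rose and 2 fell with CRISPRa, and the collagen gene COL1A1 went from 74.3 to 2880 CPM (log2 fold change 5.41). LAMA1, also on that list, was low in the same libraries because the rule required it, so nothing is read from its contrast with COL1A1. With CRISPRi 1 of 21 rose, LUM (3.47).

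Receptors, adhesion and other membrane proteins were the 13 members MST1R (the RON receptor kinase), NGFR (the p75 neurotrophin receptor), FGFRL1 (an FGF receptor-like protein without a kinase domain), ADRA2B (an alpha-2B adrenergic receptor), IL10RA (an interleukin 10 receptor subunit), SCARA3, CELSR2 (a flamingo cadherin), CDHR1 (a photoreceptor cadherin), CLDN4 (a tight junction claudin), EMP2, MUC16 (the mucin that carries CA125), PTRF and ITPRIPL1. The dCas9-VPR controls were 4.63 to 8.61 times the recruitment level over the group. CELSR2 was the most abundant in the dCas9-KRAB controls, with 140 to 181 CPM there and 151 and 181 CPM under dCas9-KRAB recruitment, against 42.6 and 50.7 CPM with dCas9-VPR recruitment and 175 to 268 CPM in the dCas9-VPR controls. ITPRIPL1 had 1.09 and 0.830 CPM with dCas9-VPR recruitment against 5.39 to 7.75 CPM, and 4.81 and 6.35 against 5.66 to 6.52 CPM with dCas9-KRAB. NGFR and EMP2 were higher with nontarget Sp than with LTR5HS Sa in the dCas9-VPR lines, NGFR at 26.7 and 36.3 against 14.1 and 13.8 CPM and EMP2 at 115 and 95.8 against 55.9 and 56.4 CPM. In the FGF and RAS-MAPK list 9 of 29 other genes rose and 4 fell with CRISPRa (15.7% and 12.3% of all genes did). With CRISPRi 1 of 26 rose and 3 fell (0.831% and 1.94% of all genes did). The ligand gene FGF2 rose (0.73), and the feedback inhibitors SPRY4 (-0.53) and IL17RD (-0.82) were on the falling side.

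Channel and transport members included KCNN1 (a calcium-activated potassium channel), SLC7A3 (a cationic amino acid transporter) and ATP8A1 (a phospholipid flippase). SLC7A3 had 10.9 and 9.76 CPM with dCas9-VPR recruitment against 42.8 to 45.7 CPM, and 79.4 and 106 against 70.8 to 91.3 CPM with dCas9-KRAB. Its dCas9-KRAB groups overlapped, and all 6 dCas9-KRAB values were above the dCas9-VPR controls. KCNN1 had 6.17 and 6.12 CPM with dCas9-VPR recruitment against 21.7 to 29.9 CPM, and 9.45 and 11.1 against 8.82 to 15.8 CPM with dCas9-KRAB (log2 fold change -0.27, SE 0.24). Of 34 other potassium channel genes tested with CRISPRa 12 rose and 4 fell (15.7% and 12.3% of all genes did), with KCNH2 up by 3.85. Of 33 with CRISPRi 1 rose (KCNQ3, 2.67) and 1 fell (KCNA6, -0.68), beside 0.831% and 1.94% of all genes.

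Metabolic members were 7. PLIN5 coats lipid droplets, ACSL1 activates long-chain fatty acids, ABHD6 is a monoacylglycerol lipase, PYGM breaks down glycogen, PTGS1 is cyclooxygenase 1, B4GALNT3 transfers N-acetylgalactosamine and CA2 hydrates carbon dioxide. B4GALNT3 was the most abundant in the dCas9-KRAB controls, at 18.2 to 24.6 CPM there, 23.04 and 23.01 CPM with dCas9-KRAB recruitment, 26.1 and 26.2 CPM with dCas9-VPR recruitment and 87.0 to 124 CPM in the dCas9-VPR controls. Only the last of these groups stood apart by more than 2-fold. PYGM had 7.04 and 8.88 CPM with dCas9-VPR recruitment against 31.3 to 40.1 CPM, and 1.91 to 4.48 CPM over the dCas9-KRAB libraries. PTGS1, whose start is 77.6 kb from a guide match, had 18.5 and 19.99 CPM with nontarget Sp, 8.22 and 8.80 CPM with LTR5HS Sa and 1.69 and 1.82 CPM with recruitment of dCas9-VPR, and its CRISPRi log2 fold change of -0.59 (SE 0.32, edgeR adjusted p = 0.48) was the lowest among the members.

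Signalling and cytoskeleton proteins formed the largest group, with 15 members. Phosphatases and kinases were PPM1E, PTPN3, PPP1R16B (a regulatory subunit of protein phosphatase 1) and DAPK2. Regulators of small GTPases and actin were ASAP3, ARHGAP33, GRTP1, FAM49A (a RAC1-binding family member) and COBL. SMTNL2, CLMN, FRMD5, CAPN6, THEMIS2 (an adaptor in immune receptor signalling) and GADD45G (a growth arrest gene) made up the rest. FAM49A had the second lowest ratio (0.129), with 0.709 and 0.519 CPM (13 and 10 counts) with dCas9-VPR recruitment against 5.48 to 6.60 CPM, and 1.66 and 1.04 against 1.03 to 1.93 CPM with dCas9-KRAB. PPM1E had 1.31 and 1.56 against 7.53 to 8.03 CPM, and 5.14 and 6.09 against 5.31 to 7.72 CPM. ASAP3, the most abundant of the group in the dCas9-KRAB controls, had 22.0 and 23.4 against 76.8 to 95 CPM, and 61.0 and 79.7 against 71.3 to 97.7 CPM. FRMD5, the member nearest to a guide match, had 1.20 and 1.61 against 5.48 to 6.11 CPM with dCas9-VPR, as the rule required. With dCas9-KRAB it had 4.53 and 4.86 against 5.31 to 7.45 CPM (log2 fold change -0.45, SE 0.21, edgeR adjusted p = 0.39). Both of those recruitment libraries lay below all 4 controls, as in 9.53% of expressed genes.

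The remaining members were DRAM1 (a lysosomal protein of autophagy), TNFAIP8L1, CCDC136, PMEL (a fibril protein of melanosomes) and 3-Sep. CCDC136 had 9.55 and 10.5 CPM with dCas9-VPR recruitment against 35.3 to 39.2 CPM, and 42.8 and 49.0 CPM against 33.5 to 42.1 CPM with dCas9-KRAB. PMEL had 16.9 and 14.8 against 51.2 to 64.3 CPM, and 16.1 and 18.3 against 16.2 to 18.5 CPM.

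The level in the dCas9-KRAB controls set the members apart from each other. In 26 members (41.3%) the dCas9-VPR control mean was at least 2-fold above the dCas9-KRAB control mean with no overlap, against 1158 of 11004 expressed genes (10.5%), and in 5 (CDHR1, ESRG, MTL5, SOX21 and SOX21-AS1; 7.94%) the reverse held, against 373 genes (3.39%). The rule used the dCas9-VPR control values, so these shares carry no test. H19 was 43.6 times as high in the dCas9-VPR controls as in the dCas9-KRAB controls, PYGM 12.3 times, IL10RA 11.3 times and SMTNL2 7.90 times. ESRG was 15.2 times as high in the dCas9-KRAB controls as in the dCas9-VPR controls, SOX21 3.39 times and CDHR1 3.07 times.

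Measured against the dCas9-KRAB controls instead, the dCas9-VPR recruitment level was not low for every member. Both recruitment libraries lay below all 4 dCas9-KRAB controls in 48 members (38.7% of expressed genes did), and the higher one was at most 1/3 of the lowest such control in 27 (2.00% of expressed genes). In 6 members, ANGPTL2, B4GALNT3, CLDN4, IL10RA, PYGM and SMTNL2, both lay above all 4 dCas9-KRAB controls (33.8% of expressed genes). The 27 included SOX21, SFRP1, MDK, LAMA1, C1R, NGFR, PHF19 and ESRG, and nothing is read from these counts, since the recruitment values chose the members.

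**Figure D5:**
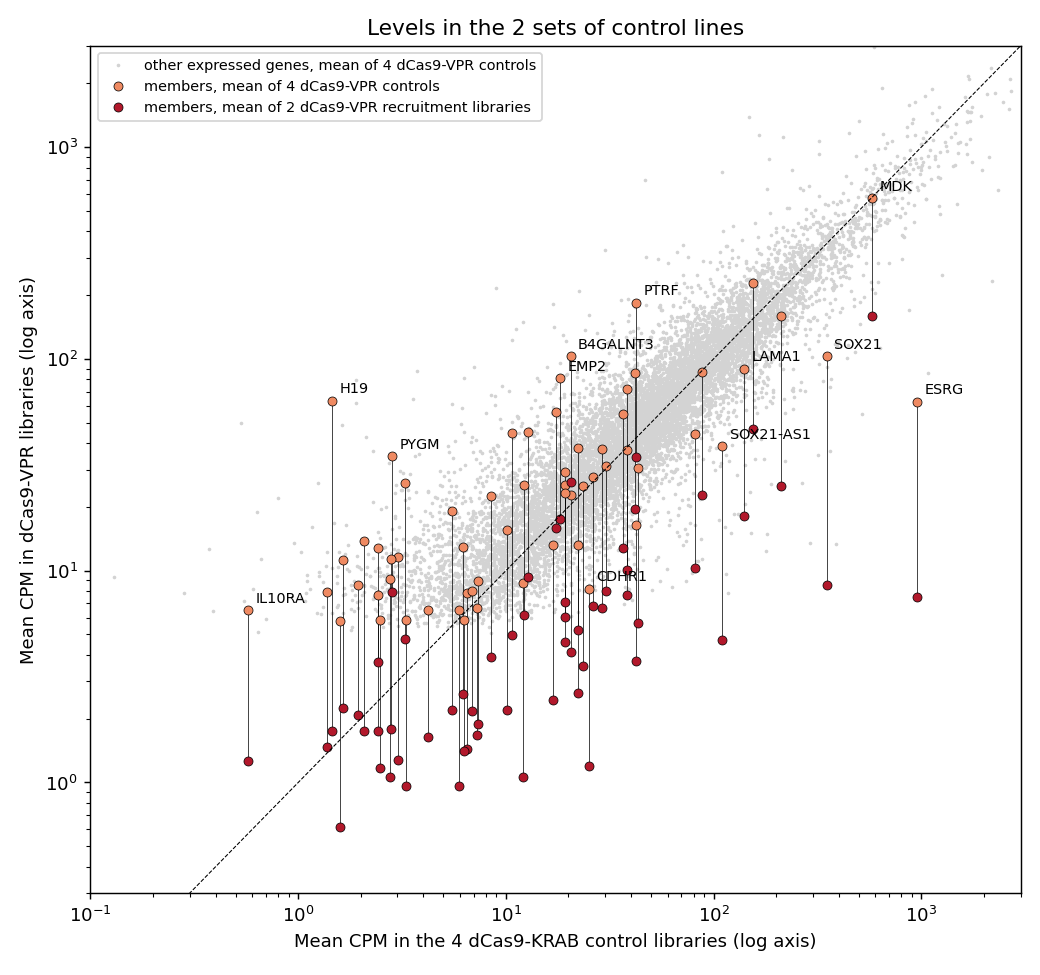
Mean CPM in dCas9-VPR libraries (vertical, log axis) against mean CPM in the 4 dCas9-KRAB control libraries (horizontal, log axis), with members joined from their dCas9-VPR control mean to their recruitment mean and other expressed genes in grey. H19, PYGM and IL10RA lie far above the dashed line of equality and ESRG and SOX21 below it, while MDK lies on it before recruitment.

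The 2 control arrays also differed in the dCas9-VPR lines for some members. Means were at least 1.5-fold apart without overlap in 12. LTR5HS Sa was higher for 3-Sep, CDHR1, PLIN5, SFRP1, SOX21 and SOX21-AS1 (6 members, 9.52%, against 3.07% of expressed genes), and nontarget Sp for ADRA2B, EMP2, H19, NGFR, PTGS1 and TAC3 (6 members, 9.52%, against 3.60%). H19 was 3.42 times as high with nontarget Sp as with LTR5HS Sa, and SOX21 was 2.46 times as high with LTR5HS Sa as with nontarget Sp. Each remained above the recruitment level with either array, as the rule required. In the dCas9-KRAB lines neither difference was called (SOX21 303 to 364 and 317 to 414 CPM, H19 0.989 to 1.33 and 1.03 to 2.49 CPM with nontarget Sp and LTR5HS Sa).

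Lists without a member show what else moved in the same libraries, to be read beside the shares of all genes. Those shares were 15.7% higher and 12.3% lower with CRISPRa, and 0.831% higher and 1.94% lower with CRISPRi. A list near them shows nothing particular to its genes. With CRISPRa the cell cycle list had 3 of 24 genes higher and 16 lower. Among the former was CCND2 (1.62), and among the latter the kinase genes AURKB (-1.44) and CDK1 (-1.23). The pluripotency list had 2 of 18 higher and 6 lower. Axon guidance and synaptic adhesion genes had 26 of 64 higher and 6 lower, forkhead factors 12 of 30 higher and 3 lower, TGF-beta and BMP genes 9 of 37 higher and 4 lower, nuclear receptors 4 of 37 higher and 5 lower, and classical cadherins 4 of 12 higher and 1 lower. Mesoderm and endoderm genes had 4 of 12 higher and 0 lower, trophoblast genes 4 of 8 higher and 1 lower, and p53 and stress genes 6 of 20 higher and 3 lower. With CRISPRi the same lists had 0 of 24 cell cycle, 0 of 18 pluripotency, 0 of 12 cadherin, 0 of 10 mesoderm and endoderm and 0 of 21 p53 and stress genes past the edgeR test. For the others the CRISPRi counts were 2 higher and 3 lower of 63 axon guidance genes, 2 higher of 26 forkhead factors, 2 higher of 38 TGF-beta and BMP genes, 2 higher of 35 nuclear receptors and 2 higher of 8 trophoblast genes (GATA3 and TFAP2A).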

How the data were processed

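Raw gene counts were deposited by the authors as 1 table of 26641 genes and 12 libraries, made per the labels with CASAVA 1.8, cutadapt 1.8.1, HISAT2 2.1.0 and featureCounts 1.4.6-p2 on hg38. The gene annotation and strand setting are not given in the sources used here. From these counts CPM was computed on column totals, and edgeR 4.0.16 (R 4.3.3, limma 3.58.1) was fitted to the 6 dCas9-KRAB libraries (TMM, filterByExpr, quasi-likelihood F test, Benjamini-Hochberg over all genes tested), and to the 6 dCas9-VPR libraries for the gene lists. DESeq2 1.42.0 and the other alternatives are given in the closing section, and the fits were tested on simulated data. Members, role groups and lists were chosen with earlier results of these data known, and every member but 1, which is not reported here, was named. Full values were given for the 10 lowest ratios, the most abundant member of each role and the genes at the threshold, and from a list at most 3 genes that passed. Columns of other samples numbered 0. Replicates are independent biological replicates per the labels. The 3 pairs of arrays had correlated differences between replicates 1 and 2 (r = 0.241 to 0.333 with dCas9-VPR and 0.203 to 0.423 with dCas9-KRAB), so the replicate number pairs the samples. The main fits left this pairing out. For CRISPRi and the dCas9-KRAB control arrays, fits with the replicate number as a block are given as an alternative. Totals of 13601701 to 69797411 counts set the precision, and intervals cover the spread between these libraries only. Gene positions came from GENCODE 44 on hg38, where 62 of the members were matched. Guide sequences were taken from the study's list of guides and matched to hg38 over their 16 bases.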

Additional observations from a re-analysis of the deposited data

Results flagged for a closer look

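Dixon's ratio was taken over the 4 control libraries of each fusion for each of the 63 members (126 groups), and 3 groups held a library beyond the 95% limit, where chance gives about 1 in 20. FAM49A had 6.60 CPM in nontarget Sp dCas9-VPR replicate 2, apart from 5.48 to 5.55 CPM in the other 3. PKDCC had 57.9 CPM in LTR5HS Sa dCas9-KRAB replicate 1, apart from 36.2 to 37.3 CPM, and ANGPTL2 had 3.38 CPM in the same library, apart from 2.05 to 2.21 CPM.

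In 13 members both recruitment libraries were below all controls with dCas9-VPR, as the rule required, and above all controls with dCas9-KRAB. The dCas9-KRAB side held in 20.6% of members and 13.3% of expressed genes, and none of the 13 passed the CRISPRi test in the main fit. The difference between fusions was not tested, since the rule fixed its dCas9-VPR side. Their CRISPRi log2 fold changes were 0.802 for MST1R, 0.745 for COBL, 0.600 for CA2, 0.600 for PTRF, 0.527 for PYGM, 0.408 for ARHGAP33, 0.345 for PPP1R16B, 0.343 for CAPN6, 0.299 for FGFRL1, 0.296 for CLDN4, 0.254 for CCDC136, 0.195 for MDK and 0.185 for SOX2-OT.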

How the results depend on the processing

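The number of members rose from 63 to 256 at a ratio of 1/2 and fell to 27 at a ratio of 1/4 and to 40 at a minimum of 10 CPM, with 86 at a minimum of 2 CPM and 47 with TMM-normalized CPM. Leaving out each dCas9-VPR library gave 70 to 101 members, with 101 without LTR5HS Sp replicate 2. The count of members past the CRISPRi test, 0, became 2 with DESeq2 (4.61% of all genes were called). It was 2 against nontarget Sp only (HES4 and PTRF, higher, 4.05% of all genes) and 1 against LTR5HS Sa only (LGALS1, lower, 2.91%). Among the 256 of the wider rule it was 5 (4 higher and 1 lower), in the main fit that called 2.77% of all genes. With a dCas9-KRAB control library left out it was 0 to 1 (PTRF without LTR5HS Sa replicate 2, 2.705% of all genes). The median CRISPRi log2 fold change was 0.12 against nontarget Sp only and -0.10 for the ratio of 1/4, and -0.055 to 0.066 when a library was left out. Between the dCas9-KRAB control arrays 1 member became 3 (HES4, LGALS1 and ESRG) with DESeq2 (1.44% of all genes called), with no filter (2.37%) and with the replicate block (2.64%), against 0.567% as reported. When a library was left out the HES4 difference was 1.529 to 1.681 on the log2 scale. The replicate block left 0 members past the CRISPRi test and a median of 0.012, and changed no other call among the members. Causes were not tested. IL10RA rested on 3 to 41 counts in the dCas9-KRAB libraries, with a 95% interval from -1.54 to 0.55.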
